A study of Mus musculus with 12 samples.

Results

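The 9 genes described here encode β-adrenergic receptors and the machinery that releases fatty acids from stored triglyceride. They were taken by name, whatever their values, from a count table of 54532 mouse genes: Adrb1, Adrb3, Prkar2b, Pde3b, Pnpla2, Abhd5, G0s2, Lipe and Mgll. Each had 1 row, and all 9 passed the filter on low counts in fat and in liver. RNA came from subcutaneous fat and liver of mice that received adeno-associated virus serotype 8 by tail vein at 10 weeks of age and then a low-fat diet for 16 weeks. In the hHKDC1 OE groups the virus carried full-length human HKDC1, a hexokinase family gene, under the control of a hepatocyte-specific promoter, that of thyroxine-binding globulin. In the null groups the vector lacked HKDC1, so virus and diet were common to every mouse. The mice were male, as the text of the study states for the sequenced fat. Each of the 4 groups (null fat, hHKDC1 OE fat, null liver and hHKDC1 OE liver) had 3 libraries, 12 in all. Since the vector acts in liver, the comparison in fat asks how fat responded to a change made in another organ.

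Lipolysis in adipocytes begins when catecholamines bind β-adrenergic receptors, which act through a stimulatory G protein on adenylyl cyclase and raise cyclic AMP. Cyclic AMP binds the regulatory subunits of protein kinase A, of which Prkar2b encodes the main one in white fat, and frees catalytic subunits that phosphorylate hormone-sensitive lipase and perilipin on the lipid droplet. Adipose triglyceride lipase (Pnpla2), inhibited by the protein of G0s2 and activated by that of Abhd5, removes the first fatty acid. Hormone-sensitive lipase (Lipe) removes the next and monoglyceride lipase (Mgll) the last, and insulin opposes the pathway through phosphodiesterase 3B (Pde3b), which degrades cyclic AMP.

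The libraries held 15496019 to 19954971 counts on genes. The label descriptions call hHKDC1 OE replicates 2 and 3 of each tissue knockouts, against their titles and treatment entries. They were kept as hHKDC1 OE, and values without them stand beside the results. The mouse gene Hkdc1 had at most 8 counts in any library, and the human transgene was not analysed here. None of 8 adipocyte markers was at 0 in a fat library and none of 10 hepatocyte markers in a liver library. Levels between libraries are given as CPM, counts scaled to library size with TMM factors. The summed adipocyte markers were 19963, 29591 and 20349 CPM in hHKDC1 OE fat replicates 1, 2 and 3, and 31034 to 33443 CPM in null fat. B cell markers summed to 831, 46.9 and 608 CPM against 1.92 to 3.53 CPM, and T cell markers to 452, 38.6 and 492 CPM against 10.1 to 15.8 CPM. Replicate 2 was the hHKDC1 OE library nearest to the null libraries on these 3 lists. In bulk tissue, fewer cells of a type and less RNA per cell cannot be told apart.

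The receptor genes lie on GRCm38 at chr8:27225776-27250616 on the minus strand (Adrb3) and chr19:56722372-56724862 on the plus strand (Adrb1). Prkar2b is at chr12:31958476-32061296 on the minus strand and Pde3b at chr7:114415281-114539251 on the plus strand. The lipase genes are at chr7:141455198-141460743 on the plus strand (Pnpla2), chr7:25379527-25398710 on the minus strand (Lipe) and chr6:88724412-88828360 on the plus strand (Mgll). G0s2 is at chr1:193272161-193273217 on the minus strand and Abhd5 at chr9:122351608-122381524 on the plus strand.

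Upstream sequence is shown for 4 genes that mark the tissue differences below. Prkar2b differed most between fat and liver, Pnpla2 had the highest level in fat, G0s2 was the gene with the higher level in liver, and Mgll shares a CACGTG motif with Prkar2b. RefSeq, on GRCm38.p6, gave a start for 7 of the 9 genes, all but Adrb3 and Pde3b. Each line gives the 250 bases before that start, 5′ to 3′ on the strand of the gene. Capitals mark GGGCGG (GC box), CACGTG (E-box), TGACG (half-site of the cyclic AMP response element) and CCAAT on either strand. The windows are chr12:32061278-32061527 for Prkar2b, chr7:141454938-141455187 for Pnpla2, chr1:193273189-193273438 for G0s2 and chr6:88724162-88724411 for Mgll.
Prkar2b: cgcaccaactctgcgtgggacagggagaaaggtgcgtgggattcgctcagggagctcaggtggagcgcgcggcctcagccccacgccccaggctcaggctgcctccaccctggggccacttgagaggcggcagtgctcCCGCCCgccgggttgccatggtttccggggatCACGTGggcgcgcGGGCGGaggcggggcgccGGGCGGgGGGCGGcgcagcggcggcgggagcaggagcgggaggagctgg
Pnpla2: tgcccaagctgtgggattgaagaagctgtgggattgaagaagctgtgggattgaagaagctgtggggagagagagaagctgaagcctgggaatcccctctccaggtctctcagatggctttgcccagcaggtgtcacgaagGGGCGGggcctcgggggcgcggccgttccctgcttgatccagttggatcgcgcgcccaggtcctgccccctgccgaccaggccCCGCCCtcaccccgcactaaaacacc
G0s2: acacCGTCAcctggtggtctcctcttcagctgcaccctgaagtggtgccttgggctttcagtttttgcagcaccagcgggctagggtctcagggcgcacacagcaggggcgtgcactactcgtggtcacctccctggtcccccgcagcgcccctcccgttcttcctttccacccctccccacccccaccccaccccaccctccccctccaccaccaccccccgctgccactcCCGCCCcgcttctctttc
Mgll: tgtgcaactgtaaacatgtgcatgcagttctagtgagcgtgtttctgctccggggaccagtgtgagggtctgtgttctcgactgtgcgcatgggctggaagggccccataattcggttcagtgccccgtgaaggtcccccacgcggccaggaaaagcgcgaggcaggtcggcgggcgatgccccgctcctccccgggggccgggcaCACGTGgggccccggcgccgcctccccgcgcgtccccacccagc

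Of the 7 upstream windows, 6 held GGGCGG (all but that of Mgll), against 33.0% of 27025 mouse promoters searched in the same way. CACGTG was in 3 windows (Lipe, Mgll and Prkar2b) against 6.04% of promoters. TGACG was in 3 (Abhd5, Adrb1 and G0s2) against 17.8%, and CCAAT in 1 (Adrb1) against 34.5%. The palindrome TGACGTCA, which contains TGACG, was in 0 of the 7 and in 1.6% of promoters, and TATAAA in 0 of the 7 and 13.0%. GC content was 62.8% to 75.6% in the 7 windows, and the median of all promoters was 52.0%. The Lipe window lies within annotated exons. These matches describe letters only.

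Levels of different genes were compared per length, in deposited FPKM (fragments scaled to gene length and to a DESeq2 size factor of each library, not to library size). In null fat Pnpla2 was highest at 678 ± 142 FPKM (SD, n = 3), above 99.8% of the genes tested there, with libraries at 513, 760 and 760 FPKM. Lipe followed at 282 ± 26.2 FPKM, Mgll at 229 ± 17.5, Prkar2b at 204 ± 20.1 and G0s2 at 176 ± 25.1 FPKM. Libraries of Mgll and Prkar2b overlapped, as did those of Prkar2b and G0s2, so the order of these neighbours was not resolved. Adrb3, the β3 receptor found mainly in adipocytes of mice, reached 78.4 ± 10.5 FPKM, Pde3b 47.8 ± 1.95, Abhd5 14.9 ± 1.24 and Adrb1 2.54 ± 0.658 FPKM. These 4 did not overlap with their neighbours in the order.

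The order in null liver was another. G0s2 led at 285 ± 61.6 FPKM (SD, n = 3), then Mgll at 90.5 ± 12.8, Pnpla2 at 49.9 ± 2.15, Pde3b at 17.4 ± 5.37, Abhd5 at 5.10 ± 0.708 and Lipe at 3.39 ± 0.756 FPKM. Below them came Adrb3 at 1.78 ± 1.47, Adrb1 at 0.583 ± 0.248 and Prkar2b at 0.230 ± 0.143 FPKM. From Lipe downward each gene overlapped with the next, and the genes above did not. Prkar2b was thus among the most abundant transcripts in fat, above 99.2% of tested genes, and above 4.6% of them in liver, where the null libraries held 12, 14 and 3 counts.

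**Figure D1:**
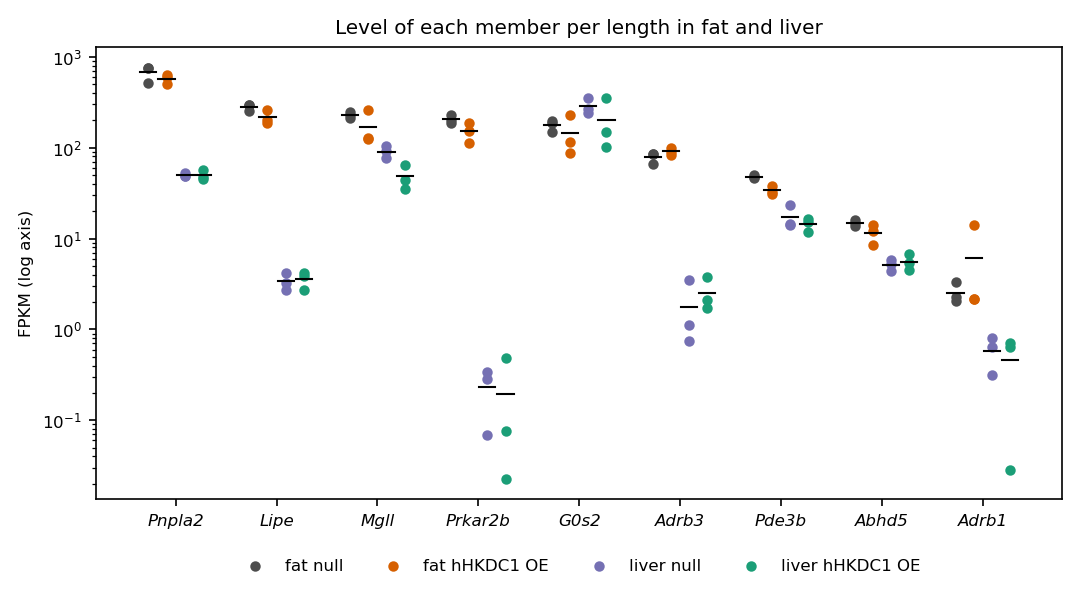
Level of the 9 genes per length in the 4 groups, as deposited FPKM on a log axis, with 1 point per library (n = 3 per group) and a short line at the mean. Pnpla2 is highest in fat and G0s2 in liver, and Prkar2b spans the widest gap, from 188 to 227 FPKM in null fat to 0.0681 to 0.338 FPKM in null liver.

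All 9 genes differed between null fat and null liver, 8 higher in fat and G0s2 lower (edgeR, adjusted p under 0.05). In this contrast 64.3% of 15259 genes were called, 33.8% higher in fat and 30.5% lower, so a call alone says little here. The groups did not overlap for any of the 9, nor for 71.6% of all genes. The median log2 difference was 2.06 for the 9 genes and 0.09 for all genes.

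The genes differed widely in the size of this difference. Prkar2b was 9.74 higher in fat on the log2 scale (SE 0.48, edgeR adjusted p = 3.22e-06), Lipe 6.32 (SE 0.28), Adrb3 5.40 (SE 0.57) and Pnpla2 3.71 (SE 0.25). The value of Adrb3 was 6.33 without null liver replicate 3, the library with 141 of its counts against 29 and 43 in the others. Adrb1 followed at 2.06 (SE 0.41), Abhd5 at 1.49 (SE 0.14), Pde3b at 1.41 (SE 0.23) and Mgll at 1.29 (SE 0.20). The smallest differences in favour of fat were those of the lipase activator, the phosphodiesterase and the lipase of the last step. G0s2, the lipase inhibitor, had a log2 difference of -0.75 (SE 0.20, edgeR adjusted p = 0.0109). Its call depended on scaling and libraries: with library size alone the difference was 0.14, where the median of all genes moved to 0.98, and without null fat replicate 2 the adjusted p was 0.0576. With 12 libraries in 1 edgeR fit the adjusted p was 0.137 for G0s2 and 0.0585 for Adrb1.

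Ratios within a library do not depend on the scaling. Pnpla2 to G0s2, in FPKM, was 2.75 to 5.15 in null fat and 0.147 to 0.204 in null liver, so the inhibitor's transcript was below that of its lipase in each fat library and above it in each liver library. Pnpla2 to Abhd5 was 45.3 ± 6.82 in null fat and 9.96 ± 1.88 in null liver (SD, n = 3). Prkar2b made up 78.3 ± 3.35% of the FPKM of protein kinase A regulatory subunits in null fat and 0.374 ± 0.223% in null liver. Adrb3 made up 90.0 ± 1.36% of the β receptor FPKM in null fat and 55.3 ± 14.2% in null liver, where it rested on 29 to 141 counts. Pde3b was 98.7% of the phosphodiesterase 3 FPKM on average in either tissue.

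**Figure D2:**
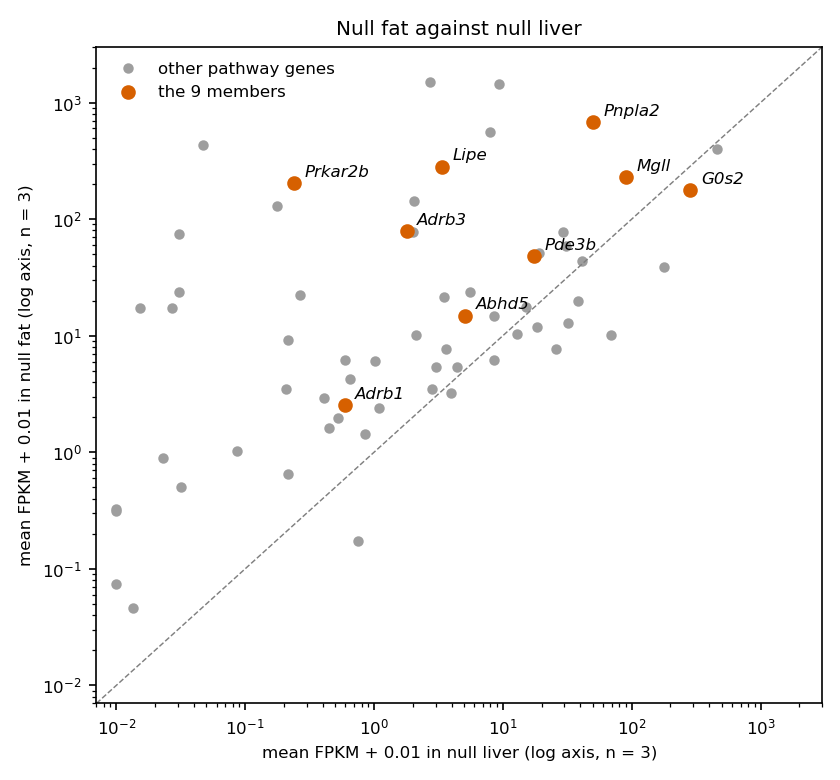
Mean FPKM + 0.01 of 63 genes in null fat against null liver (n = 3 each), both on log axes, with the 9 genes in orange, the other pathway genes in grey and equal levels as a dashed line. G0s2 lies on the liver side of the line, the other 8 labelled genes on the fat side, and Prkar2b lies farthest from it among the 9.

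In subcutaneous fat none of the 9 genes passed the test between hHKDC1 OE and null. edgeR called 0 of the 9, and 0% of the 16380 genes tested, whereas DESeq2 called 0 of the 9 but 1446 of 29853 genes fitted (4.84%). At an unadjusted p under 0.05 there was 1 of the 9, against 17.7% of all genes. The estimates of Adrb3 and Adrb1 were above 0 and the other 7 below, as were 53.9% of all genes. Prkar2b and Pde3b had groups that did not overlap in CPM, both lower, against 22.7% of all genes in either direction and 10.2% lower. In FPKM the groups of Prkar2b overlapped. The median log2 fold change was -0.32 for the 9 genes and -0.05 for all genes.

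Adrb3, the main β receptor of fat, read 303, 392 and 378 CPM in the null libraries, and 486, 371 and 434 CPM with hHKDC1 OE. The highest values were those of hHKDC1 OE replicates 1 and 3, and replicate 2 lay within the null range. The log2 fold change was 0.27 (SE 0.19), with a 95% confidence interval from -0.18 to 0.72 (edgeR adjusted p = 0.477). Levels above 1.64 times or below 0.881 of the null level lie outside this interval. Adrb3 shares 839 exonic bases, 24.85% of its exonic length, with the antisense gene Gm45470, and without strand the reads in that stretch cannot be told apart. Gm45470 had 133 to 592 counts in the fat libraries and Adrb3 4976 to 10251.

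Adrb1, the β1 receptor, read 7.72, 7.01 and 10.8 CPM in the null libraries, and 7.67, 7.23 and 50.8 CPM with hHKDC1 OE. Replicate 3 alone was high, with 826 counts where the other 5 fat libraries had 113 to 202. The log2 fold change of 1.36 (SE 0.77, edgeR adjusted p = 0.385) was -0.19 without that library. Its level there was 4.70 times the highest of the other fat libraries. Among 14500 genes with at least 1 CPM in that library, 2 stood as far above the other 5 (0.0138%), Adrb1 and the guanylate-binding protein gene Gbp11 at 4.83 times. In liver, hHKDC1 OE replicate 3 was the lowest library for Adrb1, with 1 count against 9 to 24 in the others.

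Prkar2b, downstream of the receptors, read 983, 944 and 1093 CPM in the null libraries, and 586, 917 and 803 CPM with hHKDC1 OE. In CPM all 3 hHKDC1 OE libraries lay below the lowest null library, replicate 2 by the least. In FPKM hHKDC1 OE replicate 2, at 188.7, was above null replicate 2, at 187.6, so the separation depended on the scaling. The log2 fold change was -0.39 (SE 0.23, edgeR adjusted p = 0.399). Prkar2b held 75.6% to 82.1% of the regulatory subunit FPKM in null fat and 68.9% to 77.2% in hHKDC1 OE fat (two-sided exact permutation test, p = 0.2, where 0.1 is the smallest p possible with 3 libraries against 3).

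Pde3b had the smallest unadjusted p of the 9 genes in fat. It read 582, 628 and 556 CPM in the null libraries, and 407, 392 and 497 CPM with hHKDC1 OE, so each hHKDC1 OE library was below each null library. The log2 fold change was -0.45 (SE 0.18), with an unadjusted p of 0.0416 and an edgeR adjusted p of 0.264. Of the 7 genes with a lower mean in hHKDC1 OE fat, Pde3b was the one in which replicate 2 was the lowest library.

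Pnpla2, the first lipase of the chain, read 2095, 3164 and 3029 CPM in the null libraries, and 2190, 2416 and 2695 CPM with hHKDC1 OE. The hHKDC1 OE libraries lay inside the null range. The 95% confidence interval of the log2 fold change ran from -0.81 to 0.44, so levels below 0.571 of the null level lie outside it. Lipe read 2000, 2410 and 2304 CPM in the null libraries, and 1720, 2047 and 1567 CPM with hHKDC1 OE. Replicate 2 lay above the lowest null library, and the log2 fold change was -0.33 (95% confidence interval -0.87 to 0.21). Lipe shares 918 exonic bases, 15.6% of its exonic length, with the antisense gene 4732471J01Rik, which had 90 to 225 counts in fat against 25481 to 43064 for Lipe.

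In Abhd5, Mgll and G0s2, as in Lipe, hHKDC1 OE replicates 1 and 3 were below all null libraries and replicate 2 was not. Abhd5, the activator of adipose triglyceride lipase, read 110, 123 and 127 CPM in the null libraries, and 72.9, 112 and 103 CPM with hHKDC1 OE. It shares 950 exonic bases, 15.95% of its exonic length, with the antisense gene A730085K08Rik, which had 1 to 10 counts in fat. Mgll read 1458, 1596 and 1659 CPM in the null libraries, and 912, 1760 and 919 CPM with hHKDC1 OE. G0s2 read 220, 177 and 224 CPM in the null libraries, and 111, 267 and 145 CPM with hHKDC1 OE. In Mgll and G0s2 replicate 2 was the highest of all 6 fat libraries. Without it, edgeR called Mgll (log2 fold change -0.79, adjusted p = 0.0209) and G0s2 (-0.71, adjusted p = 0.0432) lower, beside 3251 genes in all (18.9% of those tested). With all 6 libraries the adjusted p were 0.518 and 0.699.

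**Figure D3:**
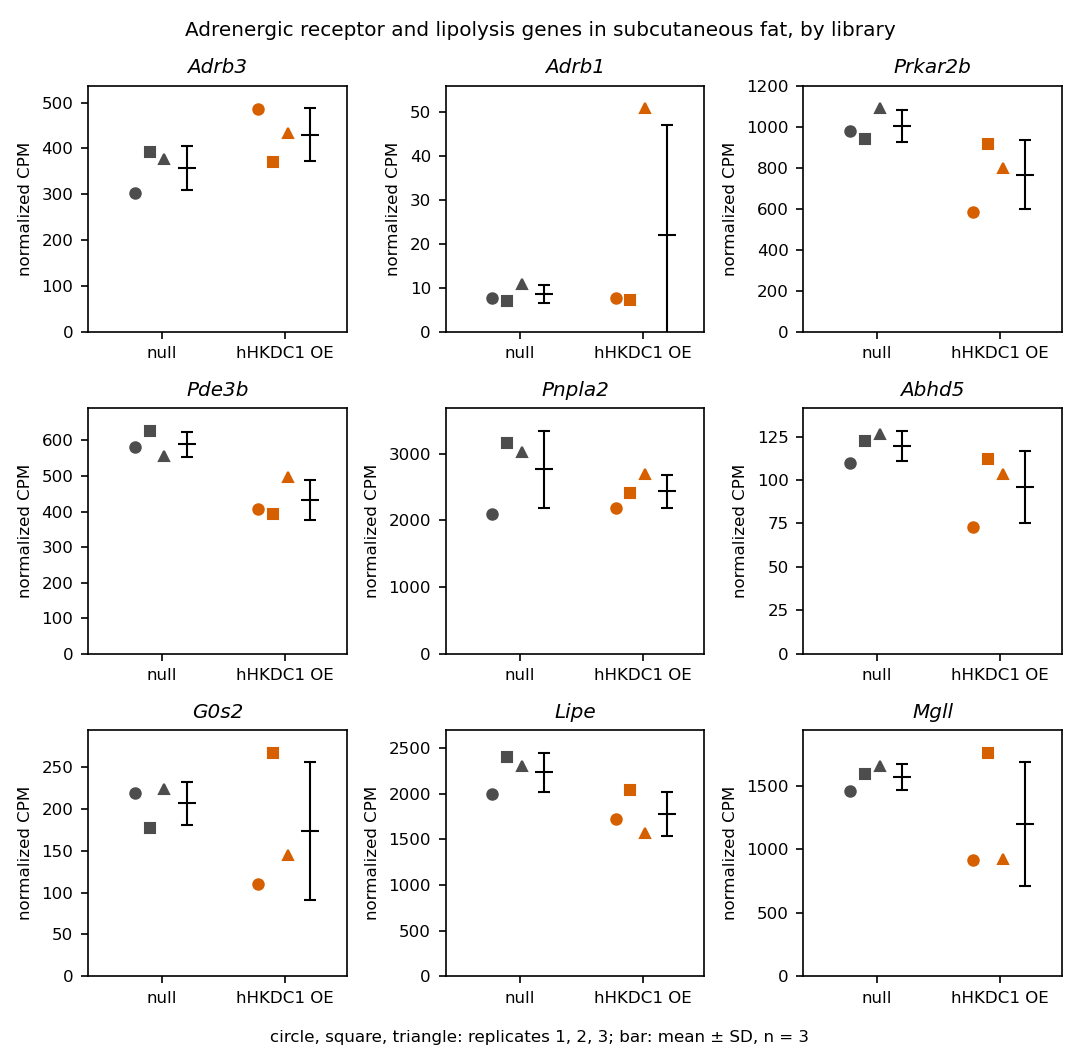
Normalized CPM of the 9 genes in the 6 fat libraries (linear axes from 0), with replicates 1, 2 and 3 as circle, square and triangle and the mean ± SD (n = 3) beside them. hHKDC1 OE replicate 2 (square) is above both other hHKDC1 OE libraries in Prkar2b, Abhd5, G0s2, Lipe and Mgll, and Adrb1 is high in replicate 3 alone, where the SD bar runs below 0 and is cut at the axis.

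Without hHKDC1 OE replicates 2 and 3, the libraries described as knockouts, 1 library was compared with 3, on the assumption that it varied as the null libraries did. edgeR called 0 of the 9 genes in this comparison and 1024 of 18343 genes in all (5.58%). G0s2 had a log2 fold change of -0.91 (edgeR adjusted p = 0.0860), Abhd5 of -0.72 (0.0921), Prkar2b of -0.79 (0.113), Mgll of -0.79 (0.115) and Pde3b of -0.54 (0.201). Adrb3 was at 0.43 and Adrb1 at -0.16.

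The summed adipocyte markers were lower in hHKDC1 OE fat (7 of 8 genes with a negative estimate, 0 called by edgeR), so the 9 genes were also set against the counts of these markers. Adrb3 then stood at 0.975%, 1.18% and 1.13% of the marker counts in the null libraries and at 2.43%, 1.25% and 2.13% with hHKDC1 OE. The groups did not overlap, as in 29.8% of all genes in this direction. Lipe was 6.45% to 7.28% in null fat and 6.92% to 8.62% with hHKDC1 OE, and Mgll 4.70% to 4.96% and 4.52% to 5.95%. All 9 log2 fold changes were above 0 with this scaling, and 0 were called (Adrb3 0.82, edgeR adjusted p = 0.116). The median of all genes moved to 0.48 and 82% of genes were above 0, so 7 of the 9 genes, from Mgll at 0.05 to Pnpla2 at 0.35, lay below the median gene. The sign of these 7 in fat therefore depended on what the counts were scaled to. The part of the marker genes in the results was not tested.

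In liver edgeR called 0 of the 9 genes between hHKDC1 OE and null, and 0% of the 13351 genes tested. At an unadjusted p under 0.05 there was 1 of the 9, Mgll, against 6.94% of all genes. Mgll read 281, 387 and 344 CPM in the null libraries, and 132, 172 and 247 CPM with hHKDC1 OE. The groups did not overlap, as in 6.18% of all genes in this direction. The log2 fold change was -0.88 (SE 0.24), with a 95% confidence interval from -1.41 to -0.35 (unadjusted p = 0.00433, edgeR adjusted p = 0.499). DESeq2 called Mgll lower (adjusted p = 0.0192), beside 0.379% of all genes, as did edgeR without a filter on low counts (adjusted p = 0.00118), beside 1.32%. Neither called any of the other 8 genes. Mgll shares 167 exonic bases, 3.29% of its exonic length, with the antisense gene Gm26588, which had 110 to 319 counts in liver.

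Hepatocyte markers were also lower in hHKDC1 OE liver. They summed to 123849 to 127223 CPM in null liver and to 103126, 94433 and 77574 CPM in hHKDC1 OE replicates 1, 2 and 3, with 7 of 10 estimates negative and 0 called. Within the hHKDC1 OE libraries they ran opposite to Mgll, which was lowest in replicate 1 and highest in replicate 3. The adipocyte list was lower without overlap as well, at 3733 to 4313 CPM in null liver and 2655 to 3173 CPM with hHKDC1 OE. So was the brown adipocyte list, at 313 to 371 and 170 to 283 CPM. Of each of these lists 3 genes could be tested (Car3, Thrsp and Cidec, and Cidea, Elovl3 and Ppara), all with negative estimates and 0 called. In a liver library 1 to 4 of the 8 adipocyte markers and 1 to 3 of the 7 brown adipocyte markers were at 0. Adipoq, Lep, Cfd, Retn, Plin1, Ucp1 and Dio2 were among those that did not pass the filter. These 2 sums therefore do not measure adipocytes in liver. Endothelial markers summed to 69.8 to 104 CPM in null liver and 40.4 to 77.7 CPM with hHKDC1 OE (6 of 6 estimates negative), and macrophage markers to 94.3 to 125 and 123 to 226 CPM (6 of 7 positive). The part of these marker genes in the result was not tested. Set against hepatocyte marker counts, Mgll was 0.221%, 0.312% and 0.276% in the null libraries and 0.128%, 0.182% and 0.318% with hHKDC1 OE, and the groups overlapped. Its log2 fold change with this scaling was -0.37 (edgeR adjusted p = 0.334), where the median of all genes was 0.47. Pnpla2 (0.49) and Abhd5 (0.65) then had groups that did not overlap, higher with hHKDC1 OE, as in 41% of all genes. Without the 2 libraries described as knockouts the log2 fold change of Mgll was -1.36 (edgeR adjusted p = 0.0697), where 0.531% of all genes were called.

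The other 8 genes had overlapping groups in liver. Pnpla2 read 105, 117 and 110 CPM in the null libraries, and 107, 130 and 102 CPM with hHKDC1 OE (log2 fold change 0.03, 95% confidence interval -0.30 to 0.36). G0s2 read 148, 229 and 171 CPM in the null libraries, and 95.0, 231 and 66.0 CPM with hHKDC1 OE, and replicate 2 was again the highest of its group, as in fat. Its log2 fold change was -0.48 (SE 0.40), and -1.18 without replicate 2 of hHKDC1 OE (edgeR adjusted p = 0.0528), where 1.07% of all genes were called. Pde3b was at -0.22, Lipe at 0.10 and Abhd5 at 0.16. For Adrb3 the null libraries held 29, 43 and 141 counts, the hHKDC1 OE libraries 152, 84 and 100, and Prkar2b 12, 14 and 3 against 1, 4 and 25 counts. The 95% confidence interval of Prkar2b ran from -2.35 to 2.01 on the log2 scale.

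**Figure D4:**
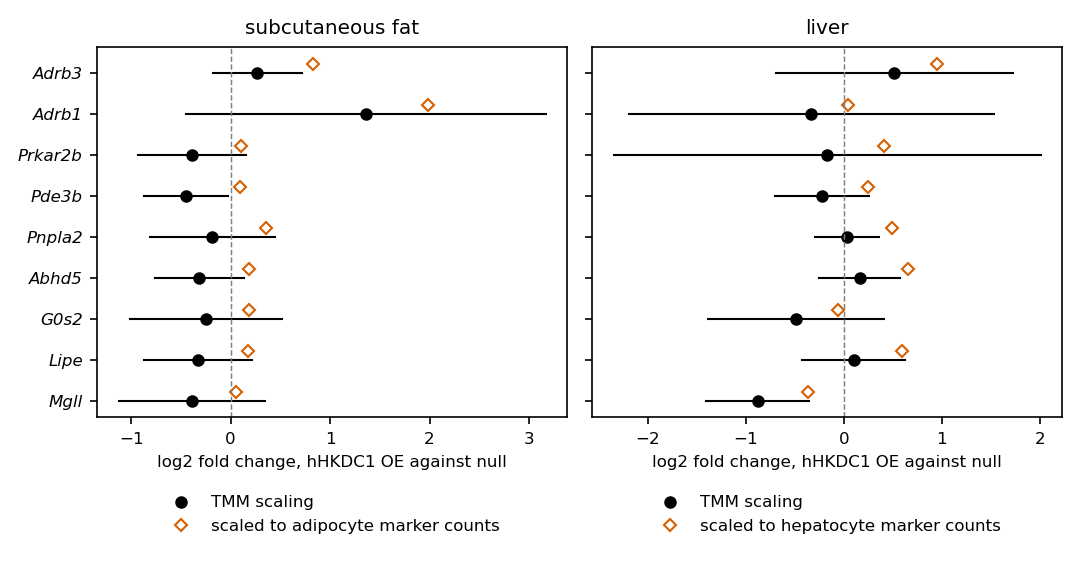
Log2 fold changes of hHKDC1 OE against null in fat (left) and liver (right) for the 9 genes, with filled circles and 95% confidence intervals from edgeR after TMM scaling (n = 3 per group) and open diamonds after scaling to adipocyte or hepatocyte marker counts. The intervals of Pde3b in fat and of Mgll in liver lie below 0, and in fat every diamond lies to the right of 0.

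No difference between the tissues in the response to hHKDC1 OE was called. In the interaction test over 12 libraries edgeR called 0 of the 9 genes and 0% of 17070 genes, and DESeq2 called 0 of the 9 and 1.59% of all genes. An unadjusted p under 0.05 was found for 0 of the 9, against 12.7% of all genes. The fat effect minus the liver effect was 0.56 for Mgll (95% confidence interval -0.35 to 1.47) and -0.13 for Pnpla2 (-0.80 to 0.53) on the log2 scale, so differences in either direction remain possible.

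Of 54 other genes of the pathway, 52 could be tested between null fat and null liver and 44 were called by edgeR, 36 higher in fat and 8 lower, where 64.3% of all genes were called, 33.8% higher and 30.5% lower. Called higher were 10 of 12 receptors, 6 of 7 adenylyl cyclases and 3 of 4 droplet proteins. Among the other protein kinase A genes, the anchor Akap1 included, 2 of 6 were called higher and 3 lower (median log2 difference -0.24), and among the other lipases and their regulators 1 of 5 higher and 2 lower (median -0.26). The largest were Plin1 (perilipin 1), the glycerol channel Aqp7, the prostaglandin receptor Ptger3, the short-chain fatty acid receptor Ffar2, the lactate receptor Hcar1 and the natriuretic peptide clearance receptor Npr3. Plin1 read 437, 439 and 418 FPKM in null fat and had 6, 0 and 0 counts in null liver. Aqp7 read 62.9, 81.4 and 79.6 FPKM and had 2, 0 and 0 counts. The first 5 had at most 6 counts in a null liver library, so their fitted folds are not given. Lower in fat were Plin5, which coats droplets in oxidative tissues (log2 difference -2.83), the carboxylesterase Ces1f (-2.26), the receptor Adra2b (-2.23), the lipase Abhd6 (-1.78), the kinase anchor Akap1 (-1.37) and the inhibitory G protein subunit Gnai3 (-1.01), with edgeR adjusted p between 4.23e-05 and 0.0267.

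In fat edgeR called 0 of 52 tested pathway genes between hHKDC1 OE and null, with 21 estimates above 0, 31 below and a median of -0.13. At an unadjusted p under 0.05 there were 13, against 17.7% of all genes. Groups of 16 did not overlap, against 22.7%, with 8 higher (12.5% of all genes) and 8 lower (10.2%). DESeq2 called 7 of them, 5 higher and 2 lower, among 1253 higher and 193 lower of 29853 genes. Without hHKDC1 OE replicate 2 edgeR called 15, 6 higher and 9 lower, where 18.9% of all genes were called. All 4 droplet protein genes had negative estimates, as had 53.9% of all genes, and 2 of these, Plin1 and Cidec, are also adipocyte markers. The largest differences without overlap were those of the aquaporin Aqp3, the adenylyl cyclase Adcy7 and the α2A receptor Adra2a, which opposes β receptors through an inhibitory G protein. For Aqp3 the null libraries held 2, 4 and 2 counts, the hHKDC1 OE libraries 47, 33 and 36 (log2 fold change 3.62, edgeR adjusted p = 0.133). Adcy7 read 15.7, 11.7 and 16.3 CPM in the null libraries, and 55.5, 27.1 and 59.5 CPM with hHKDC1 OE (1.70, edgeR adjusted p = 0.133). Adra2a read 1.70, 1.55 and 1.39 CPM in the null libraries, and 5.26, 2.00 and 4.86 CPM with hHKDC1 OE (1.38, edgeR adjusted p = 0.197). In Adcy7 and Adra2a replicate 2 was the hHKDC1 OE library nearest to the null libraries, as it was for the B cell and T cell markers. Macrophage markers were higher without overlap too, at 723 to 1150 CPM against 243 to 510 CPM. The part of these markers in the differences was not tested.

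In liver edgeR called 0 of 41 tested pathway genes, with 5 at an unadjusted p under 0.05, against 6.94% of all genes. Groups of 6 did not overlap, 5 of them lower, against 6.18% of all genes in that direction. The largest without overlap were Plin5, the fatty acid binding protein gene Fabp4 and the carboxylesterase Ces1d. Plin5 read 82.5, 122 and 113 CPM in the null libraries, and 48.9, 67.5 and 46.9 CPM with hHKDC1 OE (log2 fold change -0.96, edgeR adjusted p = 0.355). Fabp4 read 8.59, 8.34 and 9.61 CPM against 3.01, 7.71 and 3.25 CPM (-0.92, edgeR adjusted p = 0.631), and Ces1d 650, 772 and 961 CPM against 364, 400 and 529 CPM (-0.88, edgeR adjusted p = 0.435). DESeq2 called 2 of the pathway genes, both lower, among 45 higher and 49 lower of 24792 genes. Without hHKDC1 OE replicate 2 edgeR called 3, all lower, where 1.07% of all genes were called. Hepatocyte markers, and the sums of the adipocyte and brown adipocyte lists, were lower without overlap over the 6 liver libraries. The adipocyte and brown adipocyte lists had 3 testable genes each in liver and do not measure adipocytes there. The part of these genes in the differences was not tested.

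The genes whose log2 level ran most like that of a member over the 6 fat libraries were found by Pearson's r among 14960 genes, as a description without a test. For Adrb3 they were Fnbp4, Tut1, Plekhn1, Vamp1 and Pnkd (r from 0.994 to 0.995). For Lipe they were Pla2g12a, Lrsam1, Ptgr2, Apol6 and Il4 (0.994 to 0.999), and for Pnpla2 Ssc4d, Mgmt, Dcst2, A830008E24Rik and Fcamr (0.954 to 0.978). For Adrb1 they were 2310009A05Rik, Txndc17, Rnf181, Ska3 and Resf1 (0.982 to 0.990), each highest in hHKDC1 OE replicate 3, the library that sets Adrb1 apart. Among the 9 genes Prkar2b and Abhd5 were the closest pair (r = 0.963), then Mgll and G0s2 (0.903), and Adrb3 ran opposite to G0s2 (-0.80) and Prkar2b (-0.78). These libraries share a tissue and fall into 2 groups, and the values describe them only.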

How the data were processed

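Libraries from subcutaneous fat and liver, 3 per group, were not strand-specific. Per the labels and methods, the authors mapped reads with STAR (version 2.5 in the labels, and a later one also named in the methods) and counted them per gene with HTSeq (version 0.6.1). The deposited counts are raw whole numbers, and the deposited FPKM equal counts over gene length and DESeq2 size factors (100% of 252371 values above 0 within 1%). The methods name the human genome, whereas 99.8% of identifiers occur in GENCODE mouse release 21 (GRCm38), with 98.1% at the same position; Adrb1 differs there. Columns with the authors' own comparisons were not used.

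Counts were tested with edgeR 4.0.16 in R 4.3.3 (TMM, filterByExpr, glmQLFit and glmQLFTest) over the 6 fat, 6 liver or 6 null libraries, or all 12 for the interaction. P-values were adjusted by Benjamini-Hochberg over all genes tested, with a threshold of 0.05. The labels do not tie libraries to mice. The study gives mice as the unit of the fat sequencing, and for liver p-values were taken as the spread between libraries. No pair of replicates agreed within sampling noise (chi-square per gene 19.8 to 154), so none was counted as a duplicate deposit, which does not show that libraries came from separate mice. The tests were checked on simulated counts.

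Deviations of same-numbered null and hHKDC1 OE libraries from their group means correlated at 0.10 to 0.22 in liver and -0.13 to 0.04 in fat. Between same-numbered null fat and null liver libraries the correlations were 0.03 to 0.24. The labels give no pairing of libraries, and these values do not establish one. The main fits used no replicate block, which was run as an alternative.

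Alternatives were DESeq2 1.42.0, upper-quartile scaling, no TMM factors, other filters (none, or 10 counts in every library), 12 libraries in 1 fit, a replicate block, limma 3.58.1 on log2(FPKM + 1) and log2(FPKM + 0.1) for a mean FPKM of at least 0.1, adipocyte marker scaling, and each library left out. Hepatocyte marker scaling and leaving out the libraries described as knockouts were chosen after seeing the data.

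The 9 genes, the pathway list and the marker lists were chosen with earlier results of these data known. Text names the 9 genes and, of the pathway list, the 6 largest log2 fold changes per direction among called genes or, with none called, the 3 largest among those whose groups do not overlap. Genes like Adrb1, Adrb3, Pnpla2 and Lipe were the 5 with the highest r of log2(CPM + 0.5) at a mean of at least 1 CPM. Cidec and Gbp11 were named after their values were seen. The other marker lists, as summed CPM in null and hHKDC1 OE fat, were brown adipocyte (127 to 161 and 129 to 296), macrophage (243 to 510 and 723 to 1150), endothelial (897 to 992 and 747 to 1085), skeletal muscle (562 to 24279 and 1111 to 16533) and hepatocyte (3903 to 10023 and 1844 to 3013). Keratinocyte (12.0 to 210 and 1.80 to 9.68) and erythroid markers (565 to 834 and 231 to 429) did not overlap between the groups, nor did macrophage and hepatocyte markers, whereas fibroblast (988 to 1783 and 607 to 1713) and nerve markers (161 to 227 and 31.9 to 184) did. Shares called by DESeq2 are of all genes fitted, those without an adjusted p included.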

Additional observations from a re-analysis of the deposited data

How the results depend on the processing

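Of 615 log2 fold changes of the 9 genes under alternatives, 571 kept their direction and their side of the threshold, 37 reversed, 4 passed the threshold and 3 lost it. In fat the pathway list had 7 genes called with DESeq2 (4.84% of all genes), 3 without a filter (2.69%), 5 with 12 libraries in 1 fit (5.13%) and 4 without the libraries described as knockouts (5.58%). With the replicate block it had 1 (1.19% of all genes), and the block changed no call of the 9 genes in fat or liver. Leaving out 1 library gave 0 to 2 of the 9 genes and 0 to 15 pathway genes in fat, the highest without hHKDC1 OE replicate 2 (18.9% of all genes). In liver, DESeq2 called 1 of the 9 and 2 pathway genes (0.379% of all genes), no filter 1 and 3 (1.32%), and leaving out 1 library 0 to 3 pathway genes, the highest without hHKDC1 OE replicate 2 (1.07%). The cause of these differences was not tested.

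Signs reversed in fat with adipocyte marker scaling for Prkar2b (0.10), Pde3b (0.10), Pnpla2 (0.35), Abhd5 (0.18), G0s2 (0.18), Lipe (0.17) and Mgll (0.054), and in liver with hepatocyte marker scaling for Adrb1 (0.041), Prkar2b (0.41) and Pde3b (0.25). These follow from the scaling itself, since the all-gene median went from -0.05 to 0.48 in fat and from 0.01 to 0.47 in liver. Without the libraries described as knockouts Adrb1 was -0.16 in fat, and in liver Adrb1 was 0.27, Pnpla2 -0.050 and Lipe -0.33. Pnpla2 in liver was -0.0066 and -0.0068 with limma at pseudocounts of 1 and 0.1, G0s2 between tissues 0.14 with library size alone, and the interaction of Prkar2b 0.068 with the replicate block. Leaving out 1 library gave -0.19 to 1.77 for Adrb1 in fat. In liver it gave -0.74 to 0.23 for Adrb1, -2.07 to 0.33 for Prkar2b, -0.34 to 0.035 for Pde3b, -0.081 to 0.10 for Pnpla2, -0.0063 to 0.28 for Abhd5 and -0.051 to 0.30 for Lipe. For the interaction it gave -1.13 to 0.20 for Adrb3, -0.65 to 1.77 for Prkar2b, -0.34 to 0.99 for G0s2 and -0.029 to 0.84 for Mgll. Adrb1, Adrb3 and Prkar2b had 1 to 152 counts per liver library, and their replicates spread widely.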
